A study of Mus musculus with 21 samples.

Results

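De novo fatty acid synthesis, the making of new fat from sugar-derived carbon, was followed through 10 genes in mouse liver: the transcription factor genes Srebf1 and Mlxipl, the enzyme genes Acly, Acaca, Fasn, Elovl6, Scd1 and Me1, and the lipogenic genes Thrsp and Pnpla3. They were chosen by name, as array spots that are not controls and carry 1 of these 10 gene names. The 10 genes had 18 of the 55681 probes on the array. Of them 9 genes passed a filter on dim probes, together with 19716 genes in all. The livers came from 21 adult male C57BL/6J mice, an inbred strain. All had adapted for 3 weeks to a diet of normal fat content and were then given food rich in fat over 12 weeks. It was plain for 11 mice (HF) and held 0.33% by weight of the plant flavonoid quercetin for the other 10 (HF-Q). Food was withdrawn 2 to 4 hours before the mice were killed. No group ate a normal-fat diet through the study, so the effect of the fat itself is not measured here.

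In this pathway ATP citrate lyase (Acly) makes acetyl-CoA from citrate, acetyl-CoA carboxylase (Acaca) turns it into malonyl-CoA, and fatty acid synthase (Fasn) builds palmitate from both, with NADPH partly from malic enzyme (Me1). Elovl6 lengthens palmitate and Scd1 desaturates the products. In liver the genes are known to be switched on after a meal by SREBP-1c, the product of Srebf1, which acts for insulin, and by ChREBP, the product of Mlxipl, which acts for glucose. Much of the control of both factors is known to lie in cleavage, transport and modification of the protein, which a measurement of RNA does not see.

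Each array compared 1 liver, labelled with the dye Cy5, with a pool of all samples, labelled with Cy3, and dyes were not swapped. Every level below is the normalized log2 ratio of Cy5 to Cy3, so that 0 is an equal normalized signal in both dyes and a rise of 1 is a doubling. Without a dye swap, a difference of a gene from the pool cannot be separated from a difference between the dyes. The mean ratio over all livers was 0.23 for Srebf1 and 0.18 for Scd1, and -0.13 for Elovl6. The sign of a ratio is therefore not read as above or below the pool. Ratios of 1 gene can be compared between livers, but the levels of different genes cannot be compared with each other. Between 45.5% and 52.5% of the probes on an array were well above background in Cy5. The arrays lay on 3 slides, of which slide 1 held 3 HF and 4 HF-Q livers, slide 2 held 4 and 2, and slide 3 held 4 and 4. All 8 hepatocyte markers checked were measured. Markers of other cell types were measured too: all 7 of Kupffer cells, all 5 of sinusoidal endothelium, all 6 of stellate cells and 3 of 4 of red blood cells. Of 6 adipocyte markers 3 were measured (Cfd, Lep and Adrb3) and Adipoq, Plin1 and Retn were not well above background. Of 5 cholangiocyte markers 3 were measured, without Epcam and Krt7, and of 8 pancreatic acinar markers 5, without Cela3b, Pnlip and Prss2. In whole liver, fewer cells of a type and less RNA per cell cannot be told apart.

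The promoter windows of 4 members are shown because these genes are described together below: Srebf1 itself, Fasn, and the genes Thrsp and Elovl6 that varied most closely with Srebf1. Sequences are from RefSeq on build GRCm38.p6, the 250 bases before an annotated start, and 9 of the 10 genes had at least 1 window, 13 windows in all. Capitals mark matches, on either strand, to TCACCC (the core of a sterol response element), CCAAT (the NF-Y box), GGGCGG (the GC box), CACGTG (an E-box), CACGNG and CNCGNG spaced by 5 bases (a carbohydrate response element), or GGGTTA and CGGTCA spaced by 4 bases (a repeat of the LXR type), a set chosen with these sequences in view. The windows lie on the minus strand at chr11:60210472-60210721 for Srebf1, chr11:120824548-120824797 for Fasn and chr7:97417551-97417800 for Thrsp, and on the plus strand at chr3:129532136-129532385 for Elovl6.
Srebf1: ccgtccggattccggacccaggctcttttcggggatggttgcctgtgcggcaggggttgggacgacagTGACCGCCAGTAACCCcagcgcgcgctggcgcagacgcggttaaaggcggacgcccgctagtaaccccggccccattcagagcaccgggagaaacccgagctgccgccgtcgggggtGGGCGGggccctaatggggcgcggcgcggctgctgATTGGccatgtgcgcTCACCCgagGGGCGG
Fasn: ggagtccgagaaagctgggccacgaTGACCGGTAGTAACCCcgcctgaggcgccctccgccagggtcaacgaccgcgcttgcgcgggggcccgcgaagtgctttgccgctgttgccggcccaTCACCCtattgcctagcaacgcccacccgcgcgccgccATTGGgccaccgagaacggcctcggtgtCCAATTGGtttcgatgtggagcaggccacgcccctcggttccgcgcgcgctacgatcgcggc
Thrsp: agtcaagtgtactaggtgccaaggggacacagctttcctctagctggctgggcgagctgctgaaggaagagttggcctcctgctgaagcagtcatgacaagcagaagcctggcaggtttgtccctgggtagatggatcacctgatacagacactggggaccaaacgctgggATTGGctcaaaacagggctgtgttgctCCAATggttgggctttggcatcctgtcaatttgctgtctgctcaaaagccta
Elovl6: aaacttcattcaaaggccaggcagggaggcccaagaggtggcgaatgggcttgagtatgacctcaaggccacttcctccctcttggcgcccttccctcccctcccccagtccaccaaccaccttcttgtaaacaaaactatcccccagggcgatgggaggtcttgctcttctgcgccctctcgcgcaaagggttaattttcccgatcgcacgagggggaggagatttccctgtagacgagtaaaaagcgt

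The LXR-type repeat stood in the windows of Srebf1, 182 to 167 bases before the start, and Fasn, 225 to 210 bases before it. With these included, 3 of 32851 windows of all genes held it. Its letters were chosen with these sequences in view and allow no variation outside the 4 spacer bases. That count therefore does not measure how common LXR elements are. The letters TCACCC were found in 4 of the 13 member windows, of Srebf1, Fasn, Me1 and Pnpla3, and in 13.8% of all windows. Srebf1 had 3 windows, for separate annotated starts. The 1 shown held both the repeat and TCACCC, and the others held neither. The CCAAT box was found in 7 of 13 windows, of 6 members, among them Thrsp with 2 matches and Fasn with 3, a pair of which overlap, against 33.8% of all windows. The GC box was found in 6 of 13 windows, of 5 members, against 32.7%, and CACGTG in 1 of 13, a window of Mlxipl, against 6.02%. None of the 13 windows held the carbohydrate response element, which 0.28% of all windows held. The Elovl6 and Acaca windows held none of these letters. Such a match is a description of the letters in a short window and not a measured binding site.

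No difference between the diets was detectable in these genes at this number of livers. Of the 9 measured genes, 0 passed an adjusted p of 0.05 between HF-Q and HF (limma, p-values adjusted by Benjamini-Hochberg over 19716 genes), against a background of 0% of all genes. At an unadjusted p under 0.05 the count was 0 of 9, and 1172 of all genes. The difference was negative, that is lower in HF-Q, for 7 members and positive for Acly and Fasn. Their median difference was -0.047 on the log2 scale, and that of all genes was -0.0044. The livers of both groups overlapped for every measured member. The share of all genes with such an overlap was not computed, so this is not given as a trait of the members.

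**Figure D1:**
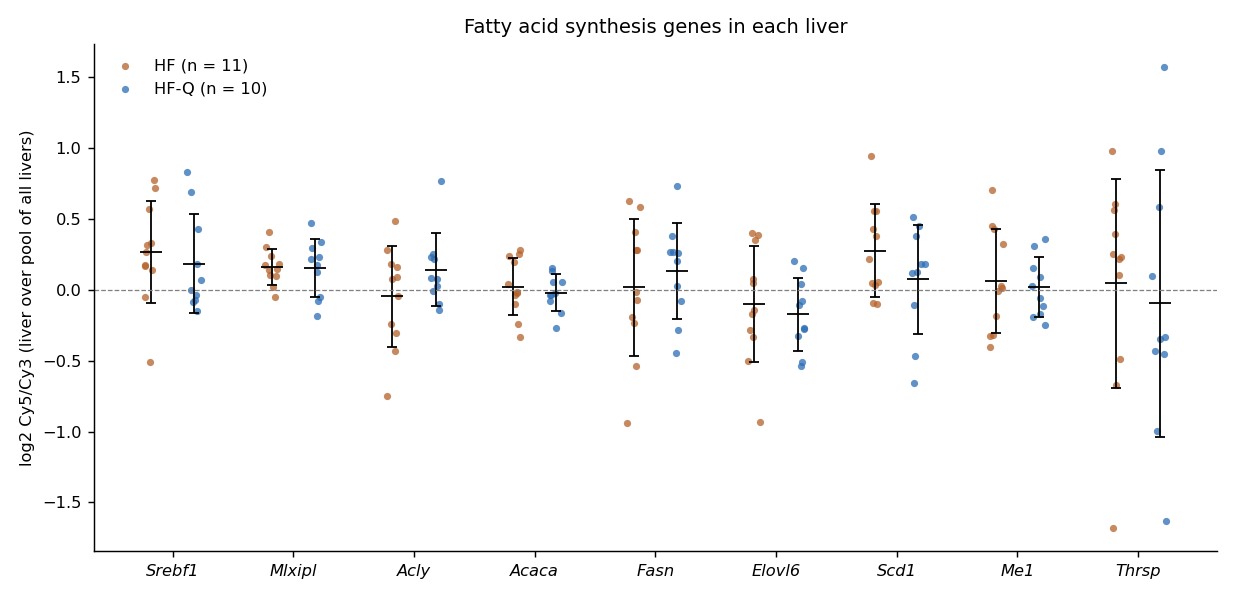
Normalized log2 Cy5/Cy3 of the 9 measured genes in each of 11 HF and 10 HF-Q livers; points are livers, and bars are the mean and SD of a diet group. The groups overlap for every gene shown, and Thrsp spreads from -1.68 to 1.57.

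Srebf1 encodes the factor SREBP-1. Its log2 ratio ranged in HF livers from -0.51 through a median of 0.27 to 0.78, and in HF-Q livers from -0.15 through 0.032 to 0.83. HF replicate 6 lay well below every other liver, and the highest values were shared between the diets, in HF-Q replicate 10 and HF replicate 9. The mean was 0.26 ± 0.36 (SD, n = 11) in HF and 0.19 ± 0.35 (SD, n = 10) in HF-Q, a difference of -0.079 ± 0.141 (SE; limma adjusted p = 0.999). The 95% interval ran from -0.37 to 0.21. Its only probe lies at 60012664 to 60012723 of chromosome 11 on build NCBI37, to which all probe positions refer, on the minus strand, and the transcripts of SREBP-1a and SREBP-1c cannot be separated by it.

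Mlxipl, which encodes the glucose-responsive factor ChREBP, was the steadier of the regulators. Its log2 ratio ranged from -0.052 through a median of 0.14 to 0.41 in HF and from -0.19 through 0.20 to 0.47 in HF-Q livers. HF-Q replicate 10, highest in Srebf1, was the lowest liver for Mlxipl. The means were 0.16 ± 0.13 (SD, n = 11) and 0.15 ± 0.20 (SD, n = 10), a difference of -0.0071 ± 0.0698 (SE; limma adjusted p = 0.999), with a 95% interval from -0.15 to 0.14. Its 2 probes, at 135613705 to 135613764 and 135614195 to 135614252 of chromosome 5, gave values that correlated at r = 0.86 over the 21 livers.

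Acly, at the head of the pathway, had the largest positive difference of the members. Its log2 ratio ranged in HF livers from -0.75 through 0.079 to 0.48, and in HF-Q livers from -0.14 through 0.080 to 0.77. The group medians were thus nearly equal, while HF replicate 6 was the lowest of all livers and HF-Q replicate 2 the highest. The means were -0.046 ± 0.355 (SD, n = 11) in HF and 0.14 ± 0.26 (SD, n = 10) in HF-Q, a difference of 0.19 ± 0.13 (SE; limma adjusted p = 0.939). Without HF-Q replicate 2 the difference was 0.12. The second and dimmer Acly probe gave a difference of 0.055 ± 0.073 (SE), and the probes, at 100337674 to 100337733 and 100365518 to 100365577 of chromosome 11, correlated at r = 0.67.

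Acaca encodes acetyl-CoA carboxylase 1, the enzyme that commits acetyl-CoA to fat synthesis. Its log2 ratio ranged only from -0.33 through -0.015 to 0.28 in HF livers and from -0.27 through -0.028 to 0.15 in HF-Q livers. HF replicate 6 was again the lowest liver. The means were 0.023 ± 0.203 (SD, n = 11) and -0.022 ± 0.130 (SD, n = 10), a difference of -0.045 ± 0.072 (SE; limma adjusted p = 0.996). A pair of bright probes that overlap in position, at 84215093 to 84215152 and 84215094 to 84215153 of chromosome 11, correlated at r = 0.97. The dim probe at 84009021 to 84009080 followed the first of them at r = 0.67, and another dim probe was well above background on 3 HF and 1 HF-Q arrays and was not tested.

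Fasn, which encodes the multienzyme that builds palmitate, ranged in log2 ratio from -0.94 through -0.014 to 0.63 in HF and from -0.45 through 0.23 to 0.73 in HF-Q livers. HF replicate 6 and HF replicate 11 were lowest, and high livers came from both diets. The means were 0.019 ± 0.483 (SD, n = 11) and 0.13 ± 0.34 (SD, n = 10), a difference of 0.11 ± 0.17 (SE; limma adjusted p = 0.990). The 95% interval, from -0.23 to 0.46, spans changes of 0.85 to 1.38 times. With single livers left out the difference ran from 0.017 (HF replicate 6 omitted) to 0.18 (HF-Q replicate 9 omitted). The probe lies at 120667666 to 120667725 of chromosome 11.

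Elovl6, the elongase of palmitate, ranged in log2 ratio from -0.93 through -0.14 to 0.40 in HF and from -0.54 through -0.19 to 0.20 in HF-Q livers. HF replicate 6 stood lowest here too, followed by HF-Q replicate 7. The means were -0.10 ± 0.41 (SD, n = 11) and -0.17 ± 0.26 (SD, n = 10), a difference of -0.072 ± 0.139 (SE; limma adjusted p = 0.999) with a 95% interval from -0.36 to 0.21. Its probe lies at 129341248 to 129341307 of chromosome 3.

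Scd1 is the main stearoyl-CoA desaturase of liver. Its log2 ratio ranged from -0.098 through 0.22 to 0.94 in HF livers and from -0.66 through 0.15 to 0.51 in HF-Q livers. The lowest livers were both on quercetin, HF-Q replicate 7 and HF-Q replicate 9, and the highest was HF replicate 3. The means were 0.28 ± 0.33 (SD, n = 11) and 0.073 ± 0.382 (SD, n = 10), a difference of -0.20 ± 0.14 (SE; limma adjusted p = 0.945) with a 95% interval from -0.50 to 0.090. With single livers left out the difference ran from -0.25 (HF-Q replicate 10 omitted) to -0.12 (HF-Q replicate 7 omitted). No Scd1 spot was saturated, and the probe lies at 44469387 to 44469446 of chromosome 19.

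Me1, the cytosolic malic enzyme that supplies NADPH, ranged in log2 ratio from -0.40 through 0.014 to 0.70 in HF and from -0.25 through -0.015 to 0.36 in HF-Q livers. Here HF replicate 11 and not HF replicate 6 was lowest, and HF replicate 1 was highest. The means were 0.064 ± 0.367 (SD, n = 11) and 0.017 ± 0.211 (SD, n = 10), a difference of -0.047 ± 0.122 (SE; limma adjusted p = 0.999). Its 3 probes, between 86475077 and 86480630 of chromosome 9, correlated with each other at r = 0.88 to 0.99, but the second gave a difference of 0.031, opposite in sign and within its error.

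Thrsp encodes Spot 14, a small acidic protein known to rise with lipogenic enzymes. It was the most variable member, with log2 ratios from -1.68 through 0.23 to 0.98 in HF livers and from -1.63 through -0.34 to 1.57 in HF-Q livers. HF replicate 6 and HF-Q replicate 7 were lowest, HF-Q replicate 10 was highest, and the highest and lowest liver were 9.51 times apart. The spread within diet groups (pooled SD 0.84) was above that of 99.8% of all tested genes. The means were 0.045 ± 0.738 (SD, n = 11) and -0.095 ± 0.940 (SD, n = 10), a difference of -0.14 ± 0.33 (SE; limma adjusted p = 0.999), with an interval from -0.83 to 0.55 that leaves changes of up to 1.46 times in 1 direction and down to 0.56 times in the other undetected. Its probe lies at 104561649 to 104561708 of chromosome 7.

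Pnpla3, which encodes a lipase-like protein of lipid droplets, is in mouse liver a known target of both regulators. Its 2 probes were well above background on 3 and 0 of 21 arrays, so that no level or difference is given for it. The dim signals, at a median of 60.6 and 49.2 intensity units in Cy5, lay close to the local background of 33 to 36.

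Most measured members varied more between livers of a diet than nearly all tested genes: by pooled SD, Thrsp, Fasn, Scd1, Srebf1, Elovl6, Acly and Me1 lay at percentiles 99.8, 98.5, 97.5, 97.5, 97.3, 96.4 and 96 of 19716 genes. Acaca and Mlxipl lay at 80.6 and 78.8. The median SD of a tested gene within diet groups was 0.126. These ranks are not matched for brightness, and the background correction draws dim ratios toward 0. The probes that stood for the members had median Cy5 signals from 1370 (Fasn) to 81190 (Scd1) units. The median signal of an array was 64.5 to 74.8 units. Over the 21 livers the bright Acly probe had an SD of 0.32 and the dim one 0.18. The part of brightness in the ranks was not tested. Differences in spread between HF-Q and HF were tested by limma on absolute deviations from the group median, and 0 of 9 members passed, against a background of 0% of all genes. Unadjusted p-values ran from 0.111 for Me1 to 0.977 for Srebf1. With adjustment over all genes this test can call few genes at this number of livers, so the absence of a call says little.

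Livers differed as wholes across the pathway. The median of the 9 log2 ratios within a liver ran from -0.51 to 0.45 in HF and from -0.27 to 0.23 in HF-Q livers. HF replicate 6 was below 0 for 8 of 9 genes, with only Mlxipl above, and HF-Q replicate 9 was likewise below for 8. HF replicate 1, HF replicate 3 and HF-Q replicate 4 were above 0 for all 9. These counts depend on where the 0 of each gene lies: Mlxipl and Srebf1 had means of 0.16 and 0.23 over all livers. The share of all genes above or below 0 on an array is not given here. HF replicate 11 went against the pattern, with Srebf1 at 0.57 beside Fasn at -0.54, Elovl6 at -0.50 and Thrsp at -0.67. The share of probes well above background was 49.4% on the array of HF replicate 6, 46.0% on that of HF replicate 11 and 52.5%, the highest of all arrays, on that of HF-Q replicate 4. The part of this share in the pattern was not tested here.

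**Figure D2:**
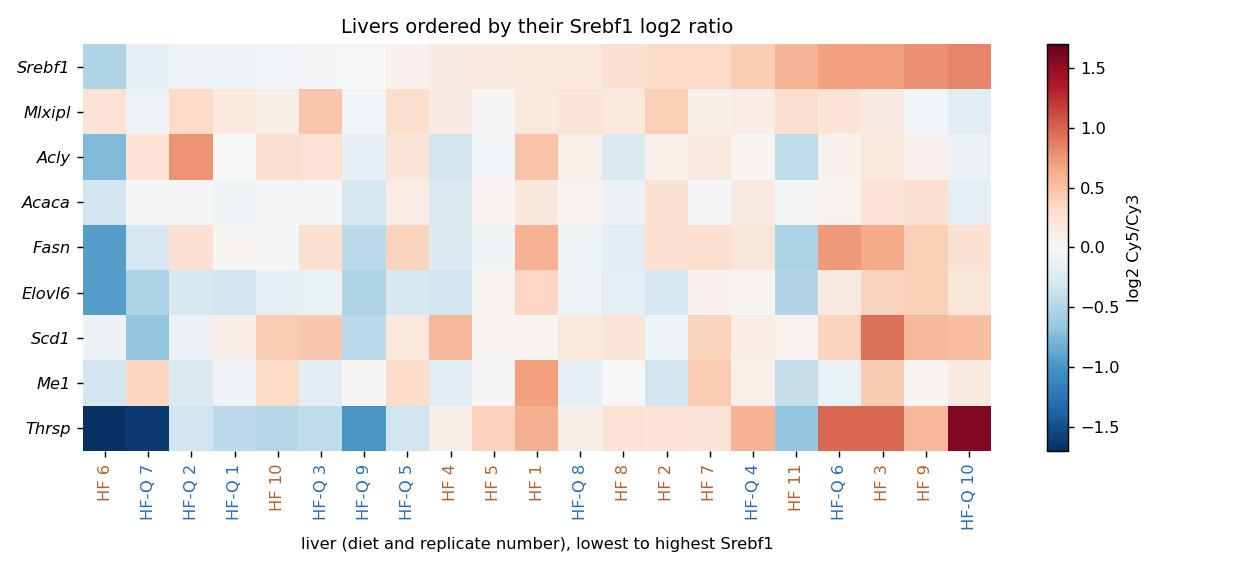
Log2 Cy5/Cy3 (colour) of the 9 measured genes (rows) in 21 livers (columns), ordered from the lowest to the highest Srebf1 ratio, with HF names in brown and HF-Q names in blue. Thrsp runs from -1.68 at the left end to 1.57 at the right end, Mlxipl shows no such order, and HF 11 is low in Fasn, Elovl6 and Thrsp despite its high Srebf1.

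Co-variation with Srebf1 was asked of the other 8 measured genes, with each gene fitted in limma on the Srebf1 log2 ratio with diet as a covariate. Thrsp and Elovl6 passed, 2 of 8 genes, against a background of 0.741% of 19715 genes (146 genes, 0.497% positively and 0.243% negatively). The median r of the 8 members with Srebf1 was 0.53, and that of all genes was -0.0015. The points share the pool, the slides and the livers, and most members belong to 1 pathway, so they are not 8 independent tests.

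Thrsp had the closest relation of the members. It changed by 1.95 ± 0.29 (SE) log2 units for each unit of Srebf1 (limma adjusted p = 0.00462, n = 21 livers). Over the 21 livers Pearson's r was 0.82 (permutation p = 1e-05, the smallest 100000 resamples can give; adjusted 0.0192) and Spearman's rho was 0.79 (permutation p = 5e-05, adjusted 0.0300), both adjusted over 19226 genes. By r, Thrsp ranked 9 among those 19226 genes. The relation was positive within each diet, at r = 0.71 in HF and 0.93 in HF-Q, and within slides 1, 2 and 3, at 0.76, 0.88 and 0.88. Without HF replicate 6 and HF-Q replicate 10, the livers farthest from the median of Srebf1, r was 0.71 and the association no longer passed (limma adjusted p = 0.146, slope 1.56).

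Elovl6 changed by 0.71 ± 0.15 (SE) log2 units per unit of Srebf1 (limma adjusted p = 0.0339, n = 21 livers). Pearson's r was 0.73 (permutation p = 0.0002, adjusted 0.0481) and Spearman's rho was 0.69 (permutation p = 0.0008, adjusted 0.0690, which misses the threshold). It ranked 49 of 19226 genes by r. The r was 0.67 in HF and 0.88 in HF-Q livers, and 0.55, 0.89 and 0.78 on slides 1, 2 and 3. The slope was 0.80 with the slide as a block, 0.57 without the livers farthest in Srebf1, and 0.57 to 0.80 with single livers left out. The call was lost with the slide as a block (limma adjusted p = 0.111), without the farthest livers (limma adjusted p = 0.342, r = 0.61), and without any 1 of HF replicate 3 (0.0833), HF replicate 6 (0.144), HF replicate 9 (0.0514), HF-Q replicate 1 (0.0504), HF-Q replicate 7 (0.0561) or HF-Q replicate 10 (0.106), each a limma adjusted p.

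Scd1, Fasn and Acaca had positive correlations with Srebf1 that did not pass. For Scd1, r was 0.57 and rho 0.55 (permutation p = 0.00698 and 0.0113, adjusted 0.166 and 0.202). For Fasn, r was 0.56 and rho 0.49 (permutation p = 0.00825 and 0.0256, adjusted 0.176 and 0.281). For Acaca, r was 0.49 and rho 0.44 (permutation p = 0.0230 and 0.0488, adjusted 0.270 and 0.365). All 3 kept a positive r in both diets and on each slide, and r was 0.54, 0.40 and 0.54 without the livers farthest in Srebf1. Without HF replicate 11, low in Fasn beside a high Srebf1, Fasn passed (limma adjusted p = 0.0436). The r of Acaca was 0.71 in HF and 0.10 in HF-Q, a difference in slope that did not pass (limma adjusted p = 1.00; unadjusted p = 0.0569), and its dim probe had an r with Srebf1 of -0.028.

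Me1 and Acly had values of r with Srebf1 near 0. Me1 had an r of 0.13 and rho of 0.19 (permutation p = 0.581 and 0.403, adjusted 0.856 and 0.787). Acly had an r of 0.025 and rho of -0.20 (permutation p = 0.914 and 0.395, adjusted 0.978 and 0.782), with r = 0.39 in HF and -0.44 in HF-Q livers. That difference in the slope of Acly did not pass either (limma adjusted p = 1.00; unadjusted p = 0.0606). Mlxipl had an r of -0.26 and rho of -0.22 with Srebf1 (permutation p = 0.249 and 0.333, adjusted 0.646 and 0.743), and its r turned to 0.24 on slide 3. Slopes on Srebf1 differed between diets for 0 of 8 members, against 0% of all genes, with 618 of all genes at an unadjusted p under 0.05.

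**Figure D3:**
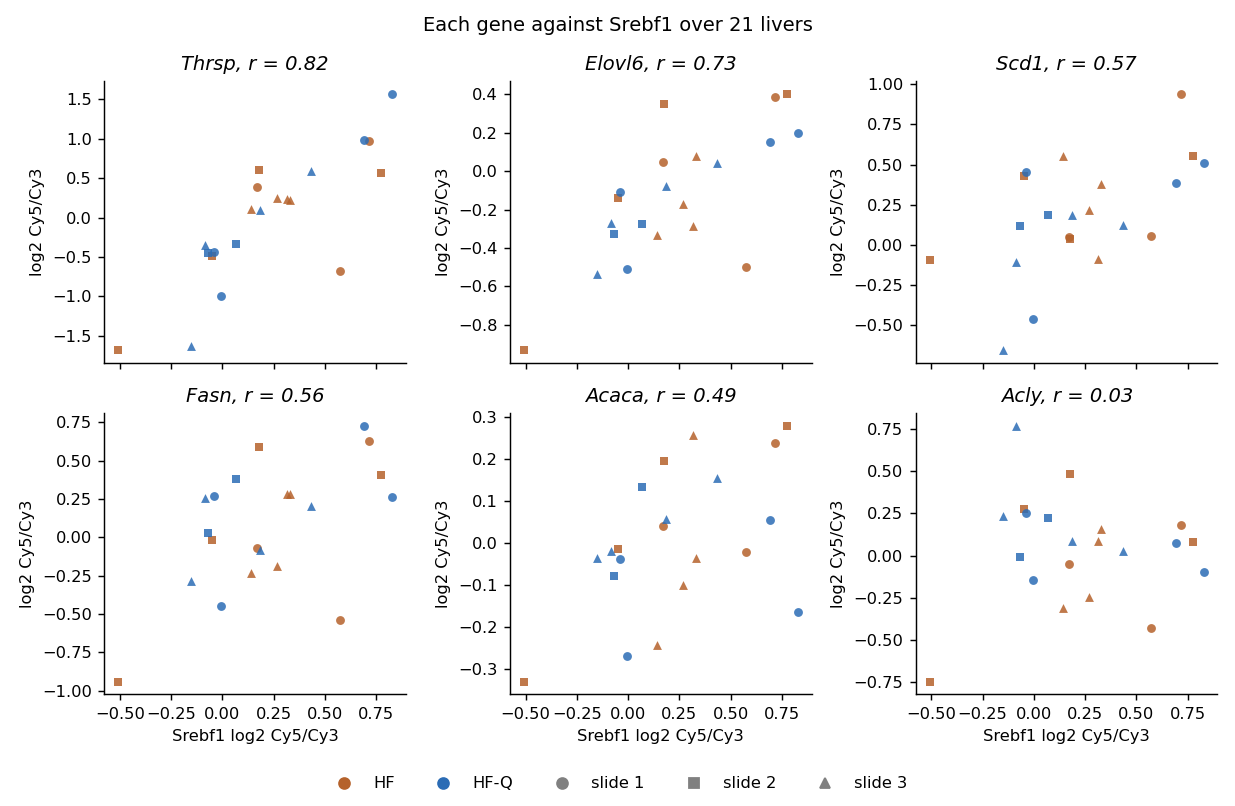
Log2 Cy5/Cy3 of 6 genes (vertical axes, scaled per gene) against that of Srebf1 (horizontal axis) in 21 livers; colour gives the diet and the marker shape gives the slide. Thrsp (r = 0.82) and Elovl6 (r = 0.73) climb with Srebf1 in both diets, and Acly (r = 0.03) shows no slope. HF replicate 6 is the point farthest left, and it is also the lowest in each panel except that of Scd1.

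With Mlxipl, 0 of 8 members were associated in the same model, although 7.12% of 19715 genes were (1404 genes, 4.86% positively and 2.26% negatively). Me1 came closest, at r = -0.44 and rho = -0.64 (permutation p = 0.0445 and 0.00215, adjusted 0.216 and 0.0678), with a limma adjusted p of 0.175. Its r was -0.44 in HF and -0.59 in HF-Q livers, but 0.043 on slide 2 against -0.54 and -0.83 on slides 1 and 3, and r was -0.43 without the livers farthest in Mlxipl. The other 7 members, Srebf1 among them, had r between -0.26 and 0.18 and permutation p-values for r of 0.249 or above. The sign of r differed between diets for Acly (-0.28 in HF and 0.56 in HF-Q), Acaca (-0.095 and 0.52), Fasn (-0.28 and 0.48), Scd1 (-0.53 and 0.38) and Elovl6 (-0.58 and 0.080). The slopes themselves differed between diets for 0 of 8 members, against 0% of all genes in limma. Unadjusted p-values of this difference were 0.0332 for Elovl6 and 0.0329 for Scd1, and 944 of all genes had one under 0.05.

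**Figure D4:**
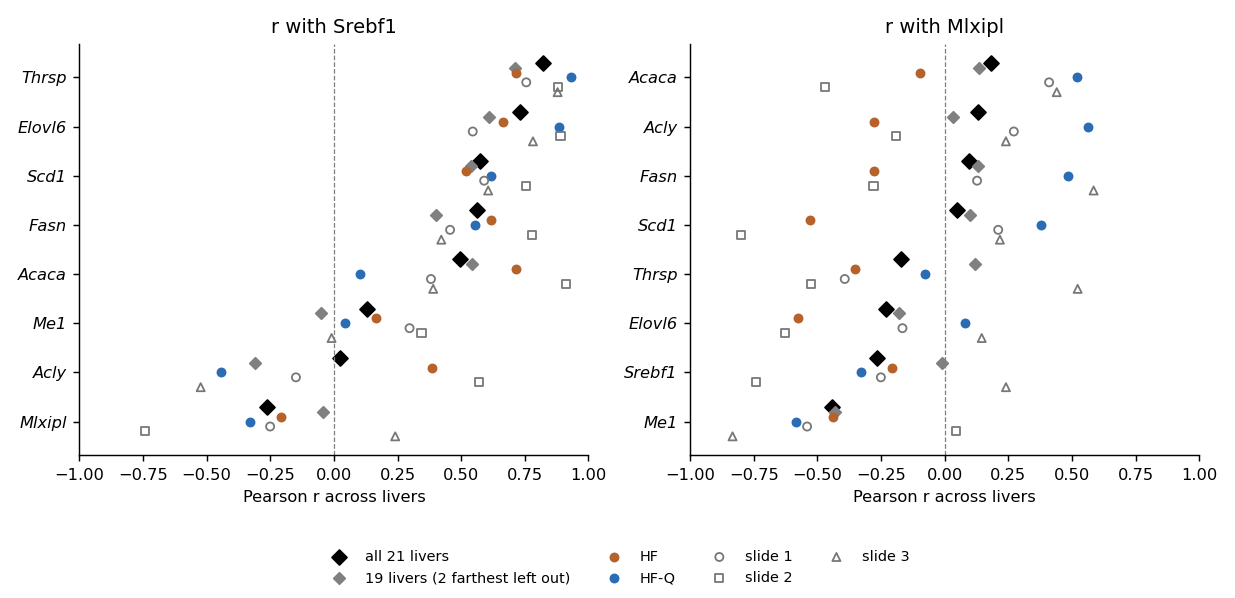
Pearson r of each member with Srebf1 (left) and Mlxipl (right) over all 21 livers, 19 livers, each diet and each slide, along an axis from -1 to 1. Thrsp, Elovl6, Scd1, Fasn and Acaca stay to the right of 0 with Srebf1 in every subset, whereas with Mlxipl each gene has subsets on both sides of 0.

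The members also varied with each other, which is given here as a description over the same 21 livers. Of the 36 pairs of all 9 measured members, 32 had a positive r. The median was 0.47, the lowest -0.44, and 41.7% of the pairs reached 0.5, as did 3.13% of all gene pairs. Without Mlxipl, all 28 pairs of the other 8 genes had a positive r, with a median of 0.51, and 53.6% of them reached 0.5. The closest pairs were Elovl6 with Thrsp (r = 0.87, rho = 0.85), Fasn with Elovl6 (r = 0.84, rho = 0.76), Srebf1 with Thrsp, given above, and Fasn with Thrsp (r = 0.74, rho = 0.71). Fasn was close to Acaca (r = 0.72) and Acly (r = 0.70), the enzymes before it in the pathway. Acly paired with Fasn at r = 0.91 in HF livers and 0.24 in HF-Q livers, and with Elovl6 at 0.84 and -0.20. Me1 likewise paired with Elovl6 at 0.76 in HF and -0.26 in HF-Q livers, with Acly at 0.82 and -0.31, and with Fasn at 0.73 and -0.22. These differences between diets were not tested, and HF replicate 6, low in all these genes, is among the HF livers.

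Genes whose profile over the livers was most like that of Srebf1 were, by Pearson r among 13690 genes with a symbol, Sds (serine dehydratase, r = 0.88), Marveld1 (0.86), Eif2b3 (0.85), Slc2a4 (the glucose transporter GLUT4, 0.84), Surf2 (0.83), Gm8221 (0.83), Thrsp (0.82) and Slc37a4 (the glucose 6-phosphate transporter, 0.82). The most opposite were Cbll1 (-0.86), Prxl2c (-0.80), Evi5 (-0.78) and Bcl10 (-0.78). For Mlxipl the closest were Ankhd1 (0.90), Mbd6 (0.87), Arap1 (0.86), Rnf214 (0.85), AW549877 (0.85), Impg1 (0.85), Neb (0.85) and Cp (0.85), and the most opposite were Fcf1 (-0.89), Tpd52 (-0.88), Galk2 (-0.86) and Ube2d2a (-0.83). No member of the pathway was among the genes closest to Mlxipl. These genes were picked for their r, which is given with no test.

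Around the members, 10 lists of related genes held 0 genes that passed between the diets in limma. Of 17 other measured genes of fatty acid synthesis, 8 were higher and 9 lower in HF-Q, with a median difference of -0.0059. Fads2, the delta-6 desaturase, was the only 1 of them associated with Srebf1 (r = 0.69, limma adjusted p = 0.0483), against 0.741% of all genes. Aacs, acetoacetyl-CoA synthetase (r = 0.64), and Mid1ip1, a relative and partner of Thrsp (r = 0.58), did not pass (limma adjusted p = 0.0648 and 0.0785), and Elovl3, another elongase, had an r of -0.52.

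Of 14 genes that supply precursors and NADPH, 4 were higher and 10 lower, at a median difference of -0.027. The pyruvate dehydrogenase subunit gene Pdha1 differed by -0.10 ± 0.05 (SE; limma adjusted p = 0.831) and the malate dehydrogenase gene Mdh1 by -0.095 ± 0.043 (SE; limma adjusted p = 0.823). G6pdx, which feeds NADPH from the pentose phosphate pathway, had an r with Srebf1 of -0.62, opposite in sign to most members (limma adjusted p = 0.116). The list had 0 genes associated with Srebf1. Of its 14 genes 2 were associated with Mlxipl, against 7.12% of all genes. Both were negative, Pdhb (r = -0.67) and Pgls (r = -0.70), and are named after their values were seen.

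Glycolytic genes and known ChREBP targets were all measured lower in HF-Q, 13 of 13, at a median difference of -0.14, but 0 passed and 4 had an unadjusted p under 0.05. Rgs16, a regulator of G protein signalling, differed by -0.92 ± 0.37 (SE), the glucose transporter gene Slc2a2 by -0.17 ± 0.07 and the glucokinase regulator Gckr by -0.17 ± 0.07, each with a limma adjusted p from 0.789 to 0.809. This list had a median r of 0.44 with Srebf1 and of -0.096 with Mlxipl. Gckr was the only 1 of the 13 associated with Srebf1 (r = 0.76, limma adjusted p = 0.0191), against 0.741% of all genes. Pklr, liver pyruvate kinase, had an r of 0.65 (limma adjusted p = 0.0637). None of the 13 was associated with Mlxipl, against 7.12% of all genes.

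Among 18 regulators of lipogenesis, 6 were higher and 12 lower at a median of -0.026. Mlx, the partner of ChREBP, had an r of 0.63 with Srebf1 (limma adjusted p = 0.0693) and Nr1h3, which encodes LXR-alpha, one of 0.58 (limma adjusted p = 0.274), and 0 of the 18 passed. With Mlxipl 4 of the 18 passed, against 7.12% of all genes, and all 4 are named after their values were seen. Foxo1 (r = 0.76), Scap (r = 0.72) and Irs2 (r = 0.68) passed positively and Pparg (r = -0.70) negatively. The 9 LXR targets had a median difference of -0.050, and the sterol exporter genes Abcg5 and Abcg8 had an r with Srebf1 of 0.52 and 0.50 without passing (limma adjusted p = 0.213 and 0.240).

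In cholesterol synthesis, the branch driven by the related factor SREBP-2, 24 of 25 genes were higher in HF-Q. Their median difference was 0.27, where the fatty acid genes had a median of -0.047. In limma 0 of the 25 passed and 13 had an unadjusted p under 0.05, as did 1172 of all 19716 genes. That list had a median r with Srebf1 of -0.18, with Hmgcs1 at -0.47 and Sqle at -0.38, and 0 genes associated with it. The 10 triglyceride synthesis genes were lower in 8 cases at a median of -0.14, with Dgat2 at -0.19 ± 0.09 (SE; limma adjusted p = 0.823) and an r of 0.41 with Srebf1. Cidec (r = -0.62) and Dgat1 (r = -0.68) were the 2 of these 10 associated with Mlxipl, against 7.12% of all genes, and are named after their values were seen.

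**Figure D5:**
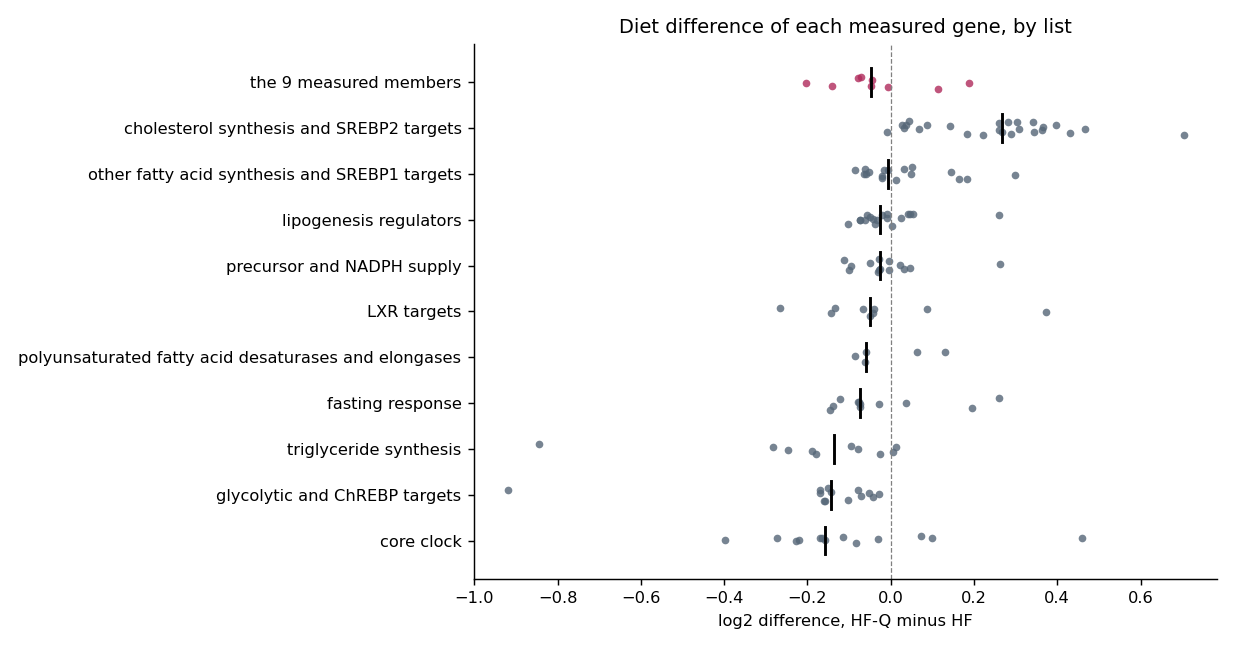
Difference between HF-Q and HF (log2, horizontal axis) of each measured gene, in rows by list, with a bar at each list's median. The 9 members straddle 0 with a median of -0.047, cholesterol synthesis genes lie to the right (0.27) and glycolytic genes to the left (-0.14).

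Genes known to vary with time of day and feeding state were set beside Srebf1. Of 13 measured core clock genes the median r with Srebf1 was 0.49. Clock, 1 of the 13, was associated negatively (r = -0.71, limma adjusted p = 0.0439), against 0.741% of all genes. The clock-controlled genes Ciart (r = 0.65) and Bhlhe40 (r = 0.62) did not pass (limma adjusted p = 0.0649 and 0.0827). The difference of the 13 clock genes between diets had a median of -0.16, with 0 genes at an unadjusted p under 0.05. Of 11 genes of the fasting response 0 were associated with Srebf1, with a median r of -0.19, and Pck1, Igfbp1 and Angptl4 had r values of 0.47, -0.44 and -0.32. The hour at which each liver was taken is not among the labels, and the part of time or of fasting length in the relation to Srebf1 was not tested.

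Markers of other cell types were set beside Srebf1. Of the markers of the 7 other cell types, 0 were associated with Srebf1, and of the 8 hepatocyte markers 1 was (Tat, r = 0.65), against 0.741% of all genes. With Mlxipl, against a background of 7.12% of all genes, 4 of the 8 hepatocyte markers were associated positively. They were Serpina1a (r = 0.78), Apob (0.75), Cps1 (0.71) and Apoa1 (0.59), and the red blood cell marker Hba-a1 was associated negatively (-0.55). These 6 genes are named after their values were seen, and the part of such markers in the associations with Mlxipl was not tested. The mean log2 ratio of the 5 measured pancreatic acinar markers ran from -0.95 to 2.19 in HF and from -0.86 to -0.15 in HF-Q livers and correlated with Srebf1 at r = 0.19. The mean of the 7 Kupffer cell markers ran from -0.57 to 0.70 in HF and from -0.63 to -0.027 in HF-Q livers, with an r of -0.41. Of these 7, 3 were higher and 4 lower in HF-Q. Marco differed by -0.69 ± 0.40 (SE) and the others by -0.12 (Cd5l) to 0.069 (Clec4f). The mean of the 5 endothelial markers had an r of -0.41. The share of probes above background on an array correlated with the members at r = -0.036 (Me1) to 0.35 (Fasn). Mean Srebf1 was 0.42, 0.066 and 0.18 on slides 1, 2 and 3, and mean Thrsp was 0.26, -0.30 and -0.061. With the share of probes above background as a covariate, Thrsp and Elovl6 still passed for Srebf1 in limma. With the slide as a block, Thrsp passed and Elovl6 did not. The part of the cell type markers in the co-variation was not tested.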

How the data were processed

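Scanner output of 21 arrays was used, made with Agilent Feature Extraction 10.7.3.1 per the submitters' processing notes. Its mean spot and local background intensity columns are not normalized, and its flags for uneven, outlying, saturated or well-measured spots are 0 or 1, per the file headers. A further table, of log2 values with equal column medians (7.92), was deposited. Its scaling and centring are not given in the sources used here, and it served only as an alternative.

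The 200 ng of RNA per liver was labelled against the pool, per the labels' protocols. In limma 3.58.1 (R 4.3.3) background was corrected by normexp with an offset of 50, which draws dim ratios toward 0, and ratios were normalized by loess within arrays, with control and uneven or outlying spots at weight 0. After removal of those spots a probe's value was the mean of its spots. Kept probes were well above background in Cy5 on at least 10 of 21 arrays, and the brightest kept probe stood for a gene. Names of 27235 probes were updated through RefSeq accessions (GRCm38.p6). Probe coordinates are those of the files on NCBI37 (mm9), and no annotation of that build was used, so exons are not given.

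The diets were compared by limma, and each gene was regressed on Srebf1 or Mlxipl with diet as covariate. Tests were two-sided at 0.05 after Benjamini-Hochberg adjustment for all genes. Permutations numbered 100000. The fits were tested on simulated data. Alternatives changed background correction, normalization, filter, probe choice, variance model, covariates, slide and replicate blocks and the livers used. The rule named all members, the 8 genes most like and 4 most unlike each regulator, and up to 4 genes of lowest p and 4 of largest r per list; others are said to be chosen after seeing values. A few list genes named by this rule are not reported here one by one; all tests and counts include them. The members and lists were chosen with earlier results of these data known. Of the 24 mice, 3 arrays were excluded by the authors for uneven hybridisation. Each label names a separate mouse, no pair of arrays was identical, and replicate numbers did not pair the livers.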

Additional observations from a re-analysis of the deposited data

Results flagged for a closer look

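Acly in HF-Q replicate 2 stood apart from the other 9 HF-Q livers on both of its probes. The bright probe gave a log2 ratio of 0.769 there against 0.251 in the next highest liver, and the dim probe gave 0.535 against 0.182. In the same liver Srebf1 was at -0.09, Thrsp at -0.35 and Fasn at 0.26. Of 15 probes examined in the HF-Q group, these 2 had a gap to the next liver beyond Dixon's 95% critical value, which chance passes in about 1 group in 20. The HF group has more than 10 livers and was not examined in this way.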

How the results depend on the processing

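The diet difference passed for 0 members under each alternative with a test (single slides gave values only), and the count of members differing in spread stayed at 0. The count of all genes passing between diets was 0 except with array weights (1) and with single livers left out (0 to 4, HF replicate 2 giving 4 and HF-Q replicate 10 giving 1 when omitted). Small differences changed sign. With median centring, Mlxipl, Acaca and Me1 turned to 0.053, 0.0036 and 0.013. Mlxipl also turned to 0.0058 from Cy5 alone, 0.022 in the deposited table, 0.014 with scaling between arrays, 0.053 with array weights, 0.12 on slide 2 and 0.027 without both livers lowest in Thrsp. On slide 1 Thrsp turned to 0.050, and on slide 3 Acaca, Fasn and Me1 turned to 0.069, -0.013 and 0.029. With single livers left out Mlxipl ran from -0.042 to 0.031, Me1 from -0.093 to 0.017 and Thrsp from -0.33 to 0.030. Without a change of sign, Srebf1 ran from -0.16 to -0.028, Elovl6 from -0.15 to -0.022, Acaca from -0.080 to -0.017 and Acly from 0.12 to 0.24. Scd1, Srebf1, Elovl6 and Acly kept their sign in all alternatives run.

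The count of members associated with Srebf1 was 6 with median centring (54.6% of all genes then passed), 1 with the slide as a block, 1 in HF-Q livers alone, 0 in HF livers alone, 0 without the 2 livers farthest in Srebf1, and 1 to 3 with single livers left out. Chosen after seeing the data, it was 1 with Srebf1 and Mlxipl in 1 model and 1 without HF replicate 6 and HF-Q replicate 7. The count for Mlxipl was 6 with median centring, when 72% of all genes passed, and 0 in the other settings. The cause was not tested. Slopes on Srebf1 that were not called changed sign: Mlxipl to 0.25 with median centring, 0.14 on slide 3 and 0.0051 without the 2 farthest livers; Acly to -0.012 over all kept probes, -0.065 and -0.54 on slides 1 and 3, -0.33 in HF-Q alone, -0.23 without the farthest livers and -0.27 without both livers lowest in Thrsp; Me1 to -0.15 without the farthest livers and -3.5e-05 with both regulators. With single livers left out, the Acly slope ran from -0.27 to 0.16 and that of Me1 from -0.051 to 0.18.

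The values showed no pairing by replicate number: deviations of 10 same-numbered pairs correlated at -0.337 to 0.158, with 1 above 0.1. Most same-numbered livers shared a slide. Such correlations cannot show whether the numbers were paired in the design. With the replicate block 0 genes passed and Mlxipl turned to 0.0071.

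The number of arrays limits the precision, and Pnpla3 was too dim to measure.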
